A study of Mus musculus with 12 samples.

Results

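Potassium channel genes and voltage-gated calcium channel genes were examined across the ascending aorta of young mice. They were taken from the deposited expression table by gene name: the names that begin with Kcn or with Cacna, Cacnb or Cacng and follow the pattern of channel subunits, without Kcnj8. This gave 45 genes of the 21954 in the table, of which 35 belong to potassium channels and 10 to voltage-gated calcium channels. Genes were chosen by name alone, so their levels and differences are measurements that the choice did not use, although earlier results of these data were known when the family was picked.

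The question behind the design is why the aorta of Notch1 heterozygotes widens at its root. RNA was sequenced from the proximal and the distal ascending aorta of 3 mice labelled Notch1.129S6+/-, which are heterozygous for the receptor gene Notch1, and of 3 wildtype littermates of the 129S6 strain, all 2 months old. This gave 4 groups of 3 libraries: Notch1+/- proximal, wildtype proximal, Notch1+/- distal and wildtype distal aorta. Both pieces of a mouse carry the same number, so each number within a genotype is 1 mouse. The main fit took the 12 libraries as separate and did not pair the pieces of a mouse. Its p-values rest on the spread within the 4 groups, with information on that spread shared over all genes tested.

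Libraries held 26518332 to 36742096 reads. Levels are RPKM, reads scaled by transcript length and by the mapped reads of the library, and a value under a library's own detection threshold was replaced in the deposited table by 0.158 RPKM, called the floor here. Summed markers of smooth muscle, among them Acta2, Myh11 and Tagln, were 2954 to 4684 RPKM in proximal and 3010 to 5341 RPKM in distal libraries, with all 8 of 8 listed genes in the table. Markers of heart muscle, 19 of 19 in the table, summed to 333 to 1947 RPKM in proximal libraries and 61.9 to 430 RPKM in distal libraries. Of these markers, Ldb3 was at similar levels in both, 46.7 to 51.6 RPKM in proximal and 38.5 to 51.9 RPKM in distal libraries. It made up 38.5 of the 61.9 RPKM in Notch1+/- distal 3, the lowest sum. Notch1 itself was at 2.20, 1.65 and 1.63 RPKM in the proximal libraries labelled Notch1+/-, against 1.11, 1.19 and 1.56 RPKM in wildtype proximal libraries. In distal libraries it was at 1.18, 1.85 and 1.51 RPKM in those labelled Notch1+/-, against 1.12, 0.972 and 0.538 RPKM in wildtype. The gene's reads thus did not show a lower level in the libraries labelled Notch1+/-, and the labels do not say which part of the gene is disrupted, so each genotype direction given here rests on the labels.

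Contraction of an artery depends on the membrane voltage of its smooth muscle cells. Calcium enters through L-type voltage-gated channels when the membrane is depolarised, and potassium channels, chiefly those opened by calcium (BK), those opened by voltage (Kv and Kv7) and inward rectifiers (Kir), let potassium out and bring the voltage back. Heart muscle uses many of the same families with other members, among them the acetylcholine-gated inward rectifier of the atrium and the T-type calcium channels of pacemaking cells, and nerve fibres use Kv1 channels.

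Promoter sequences of 33 of the 45 genes were found by symbol in RefSeq annotation of build GRCm38.p6, as windows from 250 bases before to 50 bases after the start. The windows of 4 genes are shown: Kcnj15 and Kcnmb1 because they had the highest levels, Kcna6 because it was called by the location test, and Kcna2 because its proximal and distal values did not overlap. Letters are given 5′ to 3′ on the gene's strand, and capitals mark any of 3 short motifs, searched on both strands, which do not overlap each other in these windows. The motif of GATA factors was written as AGATAA, the core bound by T-box factors as AGGTGT, and the TATA box motif as TATAAA.
Kcnj15, chr16:95257308-95257607, plus strand: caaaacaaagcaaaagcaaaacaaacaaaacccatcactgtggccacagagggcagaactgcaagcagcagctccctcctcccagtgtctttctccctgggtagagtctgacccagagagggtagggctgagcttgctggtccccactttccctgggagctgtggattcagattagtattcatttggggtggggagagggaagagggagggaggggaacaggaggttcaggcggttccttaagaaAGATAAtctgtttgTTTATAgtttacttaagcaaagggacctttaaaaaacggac
Kcnmb1, chr11:33962763-33963062, plus strand: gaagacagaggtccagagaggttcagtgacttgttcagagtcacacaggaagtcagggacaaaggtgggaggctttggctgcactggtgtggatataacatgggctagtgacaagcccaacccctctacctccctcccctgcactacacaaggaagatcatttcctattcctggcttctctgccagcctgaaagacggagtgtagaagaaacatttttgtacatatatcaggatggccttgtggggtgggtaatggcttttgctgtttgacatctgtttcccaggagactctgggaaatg
Kcna6, chr6:126740625-126740924, minus strand: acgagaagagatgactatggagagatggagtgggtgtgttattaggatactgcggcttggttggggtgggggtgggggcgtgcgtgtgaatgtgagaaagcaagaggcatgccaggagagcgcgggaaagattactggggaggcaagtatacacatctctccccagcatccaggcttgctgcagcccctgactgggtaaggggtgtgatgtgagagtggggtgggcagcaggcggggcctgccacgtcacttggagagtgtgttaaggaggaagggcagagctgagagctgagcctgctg
Kcna2, chr3:107101317-107101616, plus strand: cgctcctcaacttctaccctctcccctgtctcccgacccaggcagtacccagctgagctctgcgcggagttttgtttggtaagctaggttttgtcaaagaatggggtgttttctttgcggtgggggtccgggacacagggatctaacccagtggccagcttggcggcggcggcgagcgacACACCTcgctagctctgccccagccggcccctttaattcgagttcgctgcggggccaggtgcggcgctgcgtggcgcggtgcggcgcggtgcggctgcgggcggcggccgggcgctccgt
The Kcnj15 window holds AGATAA beginning 5 bases before the start and TATAAA, on the reverse strand, beginning 10 bases after it. The Kcna2 window holds AGGTGT, on the reverse strand, beginning 70 bases before the start, and the Kcnmb1 and Kcna6 windows hold none of the 3. The CArG box of serum response factor, a motif of smooth muscle genes that may itself hold TATAAA, was also searched on both strands. Counted by gene, with a motif in any window of the gene, it was in 0 of the 33 genes, against 1.81% of all 27025 genes. AGATAA was in 3 of the 33 genes against 12.7% of all genes, AGGTGT in 4 against 15.7%, and TATAAA in 4 against 15.7%. These shares describe letters in a fixed window and not bound sites.

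Kcnj15 and Kcnmb1 led the family in every library. Kcnj15, which encodes an inward rectifier subunit, averaged 60.02 ± 6.05 RPKM in proximal and 71.2 ± 6.57 RPKM in distal aorta (SD, n = 6 each). Kcnmb1, the beta subunit that raises the calcium sensitivity of the BK channel in smooth muscle, averaged 54.4 ± 5.60 RPKM in proximal and 69.0 ± 6.64 RPKM in distal aorta. Together they made up 48.1% to 59.2% of the summed channel RPKM in proximal libraries and 59.0% to 62.5% in distal libraries. The summed RPKM of the 45 genes was 187 to 219 in proximal and 209 to 256 in distal libraries. Mitochondrial genes held 30.7% to 43.7% of the summed RPKM of all genes in proximal libraries and 24.1% to 41.3% in distal libraries. The highest channel sum was in Notch1+/- distal 2, the library with the lowest mitochondrial share. The channel sums were not corrected for that share.

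Of the 45 genes, 4 had a mean of at least 10 RPKM over the 12 libraries, 21 had a mean between 1 and 10, and 20 lay under 1. In 17 genes at least 1 library was at the floor, and in 8 of them at least 6 libraries were. The remaining pair above 10 RPKM were Kcnma1, the pore of the BK channel, with a mean of 11.6 RPKM, and Cacna2d1, the alpha2delta subunit that brings L-type channels to the membrane, with 10.3 RPKM. Next were Kcnt2, a sodium-activated potassium channel, at 8.79 RPKM, Kcnh2, the ERG channel known from cardiac repolarisation, at 4.71, and Cacna1c, the pore of the L-type channel of arteries and heart, at 4.30. Cacng7, a gamma subunit best known from glutamate receptors of the brain, had 4.29 RPKM, and the calcium channel beta subunits Cacnb2 and Cacnb3, which traffic the pore to the membrane, had 3.85 and 3.71.

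**Figure D1:**
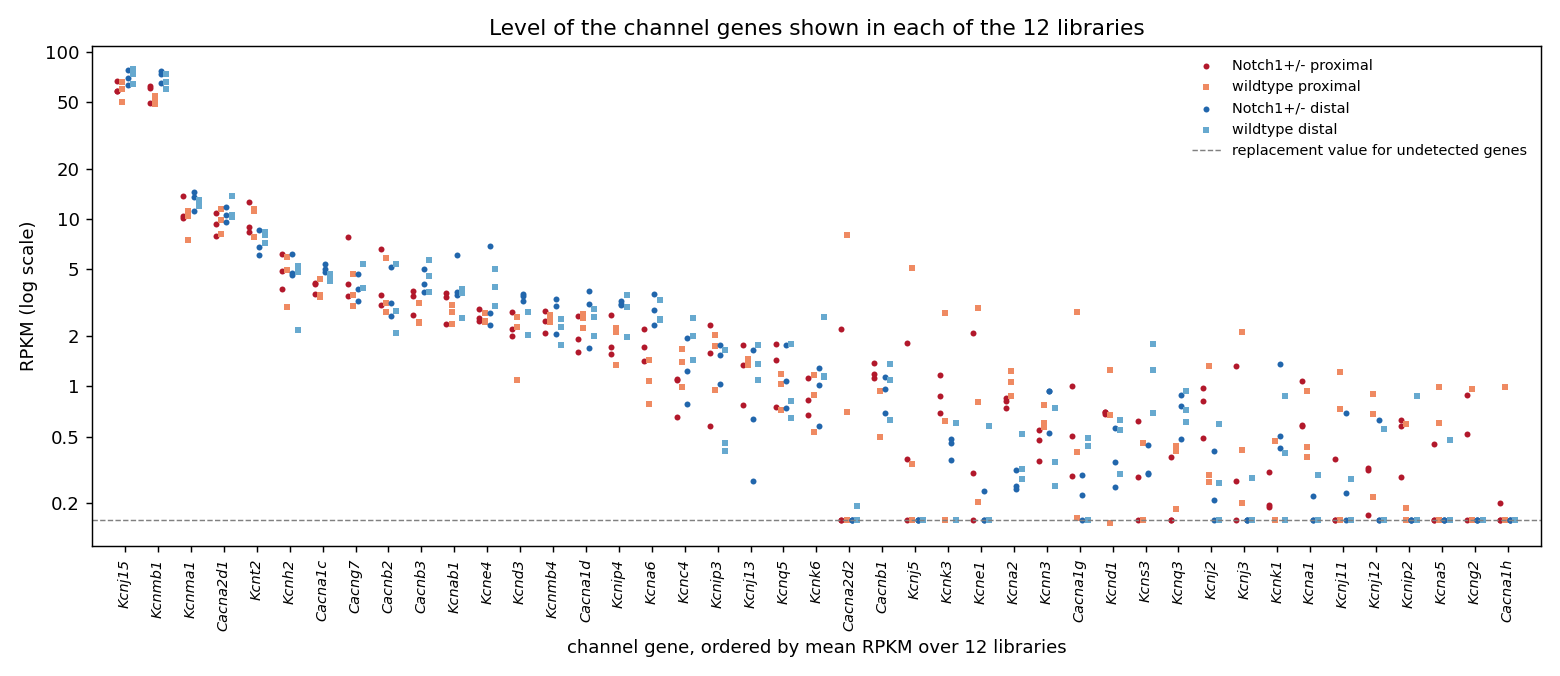
RPKM of 43 of the 45 channel genes in each of the 12 libraries, on a log axis, with genes ordered by their mean; red points are proximal and blue points distal libraries, circles are Notch1+/- and squares wildtype. Kcnj15 and Kcnmb1 stand between 48.9 and 79.2 RPKM, and the genes at the right have a mean under 1 RPKM, many of them with points on the dashed line of the replacement value.

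The BK channel subunits kept unequal levels per length of transcript. The ratio of Kcnmb1 to Kcnma1 RPKM was 4.40 to 6.88 in proximal libraries with a median of 4.84, and 4.80 to 6.85 in distal libraries with a median of 5.10. Kcnma1 was at 7.46 to 13.7 RPKM in proximal and 11.2 to 14.4 RPKM in distal libraries. Its lowest library was wildtype proximal 3. That library also held the highest summed heart muscle markers, 1947 RPKM, and the lowest summed smooth muscle markers, 2954 RPKM. The part of these tissues in the Kcnma1 level was not tested, and Cacna1c had its highest proximal level, 4.38 RPKM, in the same library. Kcnmb4, the beta subunit of BK channels best known from neurons, had 2.497 ± 0.254 RPKM in proximal and 2.495 ± 0.589 RPKM in distal aorta, with 31.5% of its exon bases under antisense transcripts. The library kit does not mark strand, so reads of a gene and of an antisense or overlapping gene cannot be told apart.

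Location was the contrast in which a channel gene passed the test. The proximal and distal libraries were compared over both genotypes with limma on log2(RPKM + 0.5), with p-values adjusted over the 17297 genes that reached 1 RPKM in at least 3 libraries. Of the 45 channel genes, 25 passed that filter, and 20 were described but not tested. Of the 25, 0 were called higher and 1 lower in the proximal aorta at an adjusted p under 0.05, where 1.5% of all tested genes were called, 0.775% higher and 0.728% lower. The fitted difference was below 0 for 16 of the 25, against 58.5% of all tested genes. Its median was -0.25 over the 25 channel genes and -0.05 over all tested genes, on the log2(RPKM + 0.5) scale.

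Kcna6, a pore-forming Kv1 subunit on chr6:126708329-126740674, minus strand of mm10, was the gene called. It had 1.71, 1.42 and 2.20 RPKM in Notch1+/- proximal aorta and 0.781, 1.07 and 1.43 RPKM in wildtype proximal aorta. In distal aorta it had 2.33, 3.56 and 2.85 RPKM in Notch1+/- and 2.51, 2.47 and 3.27 RPKM in wildtype. Each proximal library lay below every distal library, and the gene was lower in the proximal piece in 6 of 6 mice. Its mean was 1.44 ± 0.496 RPKM in proximal and 2.83 ± 0.488 RPKM in distal aorta (SD, n = 6 each), a log2 difference of -0.81 (SE 0.17, limma adjusted p = 0.0330).

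The call on Kcna6 stood close to its threshold. With the mouse as a block the limma adjusted p was 0.0636. The call held without Notch1+/- proximal 3, wildtype proximal 3 or Notch1+/- distal 1, and ended without any of the other 9 libraries, over a range of limma adjusted p from 0.0371 to 0.0959 and of log2 difference from -0.88 to -0.74. Of its exon bases, 39.6% lie under the antisense gene Gm26673, which was at 0.636 to 2.02 RPKM in proximal and 1.49 to 3.596 RPKM in distal libraries, a log2 difference of -0.82 (SE 0.18, limma adjusted p = 0.0475). Which of these overlapping genes the reads came from cannot be told apart.

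**Figure D2:**
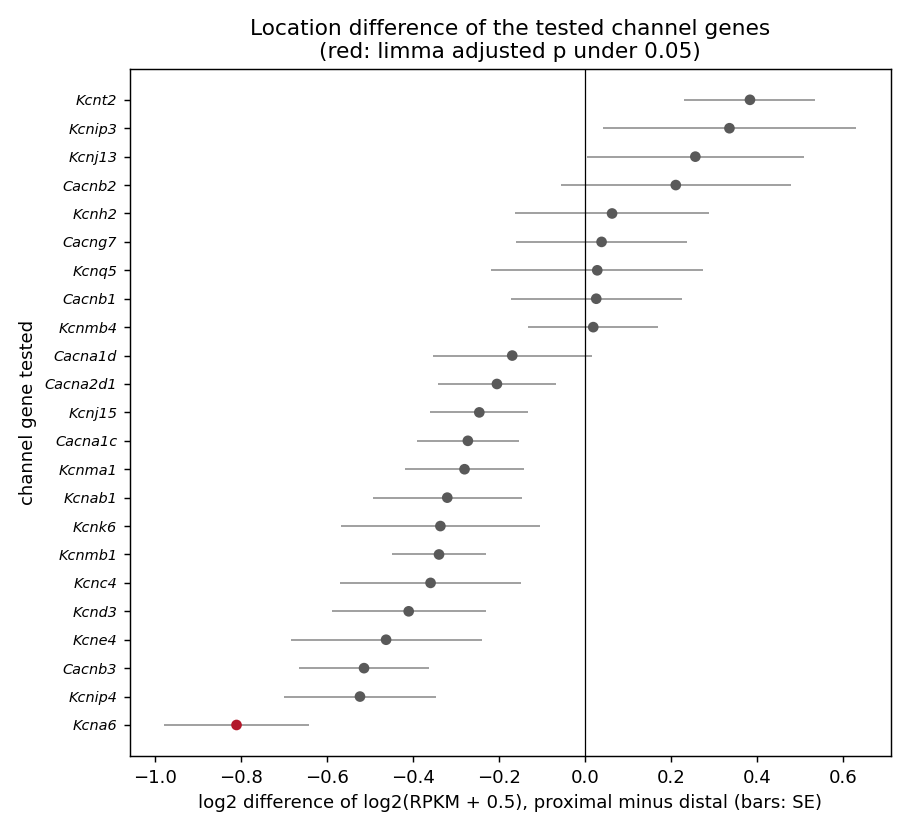
Log2 difference between proximal and distal aorta, averaged over genotypes, for 23 of the 25 channel genes tested, with bars for the standard error and genes ordered by the difference. Kcna6, in red, lies at -0.81, and the other 22 genes shown run from -0.52 to 0.38 and did not pass the test.

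Among subunits of the L-type calcium channel none was called, and the lowest unadjusted p-values belonged to Cacnb3 and Cacna1c. Cacnb3 had 2.65, 3.47 and 3.70 RPKM in Notch1+/- proximal, 2.40, 2.43 and 3.15 RPKM in wildtype proximal, 3.66, 5.02 and 4.08 RPKM in Notch1+/- distal and 3.68, 4.56 and 5.71 RPKM in wildtype distal aorta. The ranges overlapped where Notch1+/- proximal 3 lay just above Notch1+/- distal 1 and wildtype distal 1, and the proximal piece was lower in 6 of 6 mice. The log2 difference was -0.51 (SE 0.15, limma adjusted p = 0.154). Cacna1c had 3.43 to 4.38 RPKM in proximal libraries with a median of 3.81, and 4.26 to 5.35 RPKM in distal libraries with a median of 4.75. It too was lower in the proximal piece in 6 of 6 mice, with a log2 difference of -0.27 (SE 0.12, limma adjusted p = 0.406). The share of all genes that were lower in 6 of 6 mice was not counted, for these or the other genes given here.

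The other calcium channel genes tested differed less. In Cacnb2 the proximal value was above the distal one in 5 of 6 mice, with a log2 difference of 0.21 (SE 0.27, limma adjusted p = 0.865). Cacna2d1 was at 7.92 to 11.4 RPKM in proximal and 9.61 to 13.7 RPKM in distal libraries, with a log2 difference of -0.20 (SE 0.14). Cacna1d, the pore of a second L-type channel known from the sinoatrial node, was at 2.28 ± 0.440 RPKM in proximal and 2.66 ± 0.740 RPKM in distal aorta. Cacnb1, the beta subunit of skeletal muscle, was at 1.01 ± 0.301 and 0.976 ± 0.280 RPKM in proximal and in distal aorta, and Cacng7 at 4.43 ± 1.77 and 4.15 ± 0.773 RPKM (SD, n = 6 each). The ratio of Cacna2d1 to Cacna1c RPKM was 1.85 to 3.33 in proximal and 1.90 to 2.92 in distal libraries.

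No potassium channel gene other than Kcna6 passed the location test. Kcnmb1 had 60.5, 49.7 and 62.0 RPKM in Notch1+/- proximal, 54.1, 48.9 and 51.4 RPKM in wildtype proximal, 64.6, 74.0 and 76.5 RPKM in Notch1+/- distal and 59.6, 65.5 and 73.6 RPKM in wildtype distal aorta. It was lower in the proximal piece in 6 of 6 mice, although the 2 highest proximal libraries lay above the lowest distal one, with a log2 difference of -0.34 (SE 0.11, limma adjusted p = 0.205). Its partner Kcnma1 had a log2 difference of -0.28 (SE 0.14, limma adjusted p = 0.496) and was lower in 5 of 6 mice. Kcnj15 had 50.4 to 67.1 RPKM in proximal and 63.6 to 79.2 RPKM in distal libraries, with a log2 difference of -0.25 (SE 0.11, limma adjusted p = 0.456).

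Kcnt2 ran the other way. It was at 8.99, 12.6 and 8.40 RPKM in Notch1+/- proximal, 11.5, 7.76 and 11.1 RPKM in wildtype proximal, 6.83, 8.61 and 6.12 RPKM in Notch1+/- distal and 8.01, 8.41 and 7.18 RPKM in wildtype distal aorta. The proximal value was above the distal one in 5 of 6 mice and the groups overlapped, with a log2 difference of 0.38 (SE 0.15, limma adjusted p = 0.339).

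**Figure D3:**
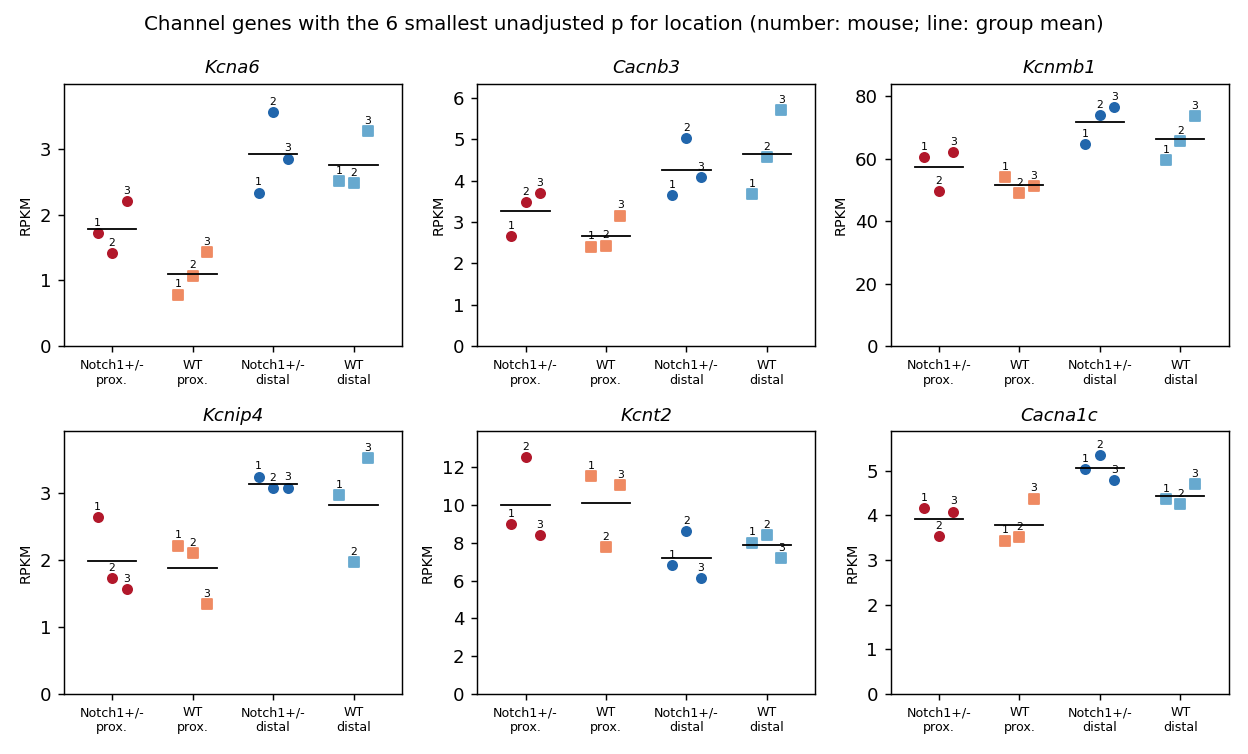
RPKM by library for the 6 channel genes with the smallest unadjusted p for location, with the mouse number above each point and a line at the mean of each group of 3. Kcna6 separates proximal from distal libraries, while Cacnb3, Kcnmb1, Kcnip4, Kcnt2 and Cacna1c overlap and did not pass the adjusted threshold.

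Kcnq5, a Kv7 channel known from arteries, was at 1.15 ± 0.410 RPKM in proximal and 1.14 ± 0.518 RPKM in distal aorta. Kcne4, an accessory subunit of Kv7 channels in arteries, was at 2.59 ± 0.193 RPKM in proximal and 3.997 ± 1.73 RPKM in distal aorta, with a log2 difference of -0.46 (SE 0.22, limma adjusted p = 0.475). Its proximal libraries lay within 2.42 to 2.91 RPKM, while the distal ones ran from 2.32 to 6.94 RPKM, the highest in Notch1+/- distal 2. Without that library the log2 difference was -0.25.

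Genes of the Kv4 channel, which carries the transient outward current in heart and nerve, were chosen for mention after their values were seen. Kcnd3, its pore, was lower in the proximal piece in 6 of 6 mice, at 1.09 to 2.76 RPKM in proximal and 2.03 to 3.57 RPKM in distal libraries, with a log2 difference of -0.41 (SE 0.18, limma adjusted p = 0.407), or -0.26 without wildtype proximal 3. Kcnip4, its calcium-binding partner, was at 1.34 to 2.65 RPKM in proximal and 1.98 to 3.53 RPKM in distal libraries, with a log2 difference of -0.52 (SE 0.18, limma adjusted p = 0.229). Kcnab1, a beta subunit of Kv1 channels, was at 2.93 ± 0.537 RPKM in proximal and 3.85 ± 1.16 RPKM in distal aorta, and Kcnip3, another calcium-binding partner, at 1.54 ± 0.659 and 1.14 ± 0.599 RPKM.

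Within a single genotype no channel gene was called for location. In Notch1+/- mice 0 of 25 were called where 0.254% of all tested genes were (0.214% higher and 0.0405% lower), and in wildtype mice 0 of 25 where 0.237% were (0.116% higher and 0.121% lower). At an unadjusted p under 0.05, 0 were higher and 2 lower in proximal Notch1+/- aorta, Kcna6 and Kcnip4, and 0 were higher and 3 lower in proximal wildtype aorta, Kcna6, Cacnb3 and Kcnmb1. By the same limma threshold 763 of all 17297 genes were higher and 477 lower in proximal Notch1+/- aorta, and 382 were higher and 1047 lower in proximal wildtype aorta. Kcna6 had a log2 difference of -0.58 (SE 0.24, limma adjusted p = 0.594) in Notch1+/- mice and of -1.04 (SE 0.24, limma adjusted p = 0.138) in wildtype mice. The difference between these, tested as the interaction, was 0.46 (SE 0.34, limma adjusted p = 0.9996).

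Among the 20 channel genes under the filter, 3 separated the 6 proximal from the 6 distal libraries, and with Kcna6 this made 2 higher and 2 lower of 45. Over all genes of the table, 0.838% were higher and 0.893% lower in proximal aorta without overlap. The 2 higher genes, named after their values were seen, were the Kv1 pore subunits Kcna1 and Kcna2, which are best known from myelinated nerve fibres. Kcna2 had 0.812, 0.850 and 0.737 RPKM in Notch1+/- proximal and 0.873, 1.06 and 1.24 RPKM in wildtype proximal aorta, against 0.316, 0.254 and 0.242 RPKM in Notch1+/- distal and 0.278, 0.515 and 0.319 RPKM in wildtype distal aorta. Kcna1 had 0.576, 0.588 and 1.076 RPKM in Notch1+/- proximal and 0.376, 0.432 and 0.932 RPKM in wildtype proximal aorta, while 4 of the 6 distal libraries were at the floor and the others had 0.219 and 0.295 RPKM. All proximal libraries lay above all distal ones for both genes.

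Kcna2 was called when no filter on low values was set, with a log2 difference of 0.80 (SE 0.16, limma adjusted p = 0.0274 over 21954 genes), and in the authors' deposited table it was the sole channel gene with an adjusted p of location under 0.05, at 0.0106. Kcna1 had a log2 difference of 0.72 (SE 0.19, limma adjusted p = 0.114) in the same unfiltered fit. Of the markers of Schwann cells and neurons, 4 of 9 were in the table, with a summed level of 4.16 to 5.87 RPKM in proximal and 2.46 to 5.82 RPKM in distal libraries. The ranges of the sum overlapped, and in most libraries its largest part was the neuronal marker Uchl1, at 1.41 to 2.94 RPKM in proximal and 1.99 to 4.94 RPKM in distal libraries. Within this list the Schwann cell markers Sox10 and Cdh19 were at 0.519 to 0.990 and 0.389 to 0.848 RPKM in proximal libraries. In distal libraries Sox10 did not exceed 0.218 RPKM and Cdh19 was at the floor in all 6. The part of these cells in the Kv1 levels was not tested. In whole tissue, fewer cells of a type and less RNA per cell cannot be told apart.

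The second lower gene, named after its values were seen, was Kcnq3, a Kv7 subunit known from neurons. It had 2 libraries at the floor and 0.375 RPKM in Notch1+/- proximal and 0.440, 0.409 and 0.184 RPKM in wildtype proximal aorta. It had 0.757, 0.889 and 0.484 RPKM in Notch1+/- distal and 0.725, 0.608 and 0.935 RPKM in wildtype distal aorta. Its unfiltered log2 difference was -0.65 (SE 0.18, limma adjusted p = 0.136). Kcna1, Kcna5 and Kcna6 are neighbours on chromosome 6, at chr6:126640397-126646384, chr6:126532551-126535412 and the Kcna6 position above, all on the minus strand. Kcna1 and Kcna6 separated the locations in opposite directions, and Kcna5, a Kv1 pore of atrium and arteries, was at the floor in 8 of 12 libraries.

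**Figure D4:**
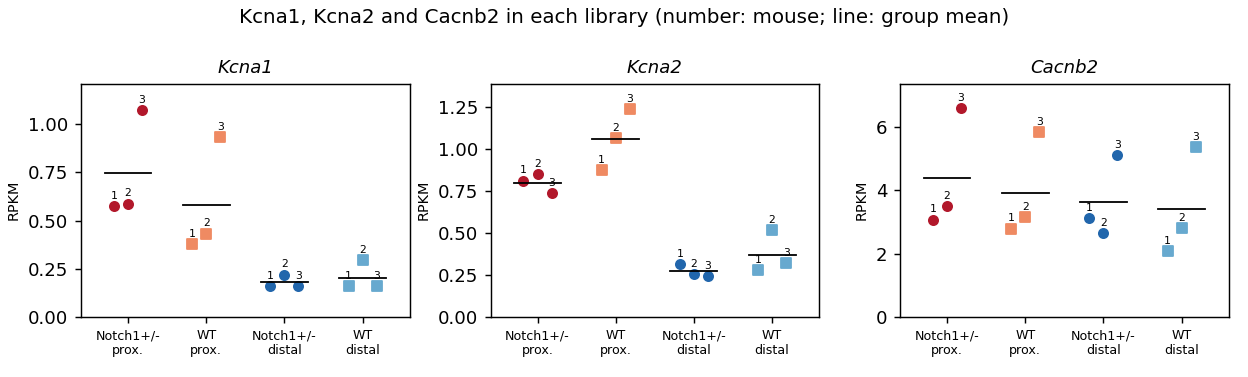
RPKM by library for Kcna1, Kcna2 and Cacnb2, with the mouse number above each point and a line at the mean of each group. Kcna1 and Kcna2 are higher in every proximal than in every distal library, while Cacnb2 is highest in the 4 libraries of mice numbered 3.

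A set of channel genes known from heart muscle was seen mainly in proximal libraries numbered 3. Kcnj3 and Kcnj5 encode the subunits of the acetylcholine-gated potassium channel of the atrium. Kcnj5 had 1.81 RPKM in Notch1+/- proximal 3 and 5.06 RPKM in wildtype proximal 3, 0.364 and 0.344 RPKM in the proximal libraries numbered 2, and was at the floor in the other 8 libraries, which include all 6 distal ones. Kcnj3 had 0.158, 0.269 and 1.33 RPKM in Notch1+/- proximal and 0.201, 0.418 and 2.103 RPKM in wildtype proximal aorta, and in distal libraries it was above the floor in wildtype distal 2 alone, at 0.281 RPKM. Both genes thus had their highest levels in the same 2 libraries. For Kcnj3, 31.1% of the exon bases lie under an antisense gene.

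The same 2 libraries held the highest levels of Cacna1g, Cacna1h and Kcnk3. Cacna1g, a T-type calcium channel of pacemaking cells, had 0.291, 0.502 and 1.004 RPKM in Notch1+/- proximal and 0.163, 0.402 and 2.78 RPKM in wildtype proximal aorta, against 0.158 to 0.489 RPKM in distal libraries. Cacna1h, the other T-type channel in the table, was at 0.995 RPKM in wildtype proximal 3 and 0.200 RPKM in Notch1+/- proximal 3, and within 0.159 RPKM in the other 10 libraries. Kcnk3, an acid-sensitive leak channel of heart and pulmonary artery, had 1.17 RPKM in Notch1+/- proximal 3 and 2.73 RPKM in wildtype proximal 3, and no more than 0.870 RPKM elsewhere.

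Cacna2d2 and Kcne1, named after their values were seen, had the same 2 libraries at the top. Cacna2d2, an alpha2delta subunit, was at 2.19 RPKM in Notch1+/- proximal 3, 8.02 RPKM in wildtype proximal 3 and 0.704 RPKM in wildtype proximal 1, and within 0.191 RPKM in the rest. Kcne1, which slows the Kv7 channel of the heart, was at 2.07 RPKM in Notch1+/- proximal 3 and 2.93 RPKM in wildtype proximal 3, and within 0.808 RPKM in the rest. The atrial marker Myl7 had 58.3 RPKM in Notch1+/- proximal 3 and 234 RPKM in wildtype proximal 3, and at most 16.8 RPKM elsewhere. Myl4, another atrial marker, had 3.64 and 14.7 RPKM in these libraries and at most 2.04 RPKM elsewhere. Nppa, from the same list of heart muscle markers, did not follow this order. It had 14.1 and 33.9 RPKM in these libraries, but 26.9 RPKM in Notch1+/- proximal 1. The part of atrial muscle in these channel levels was not tested, and none of the 7 genes passed the filter on low values.

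**Figure D5:**
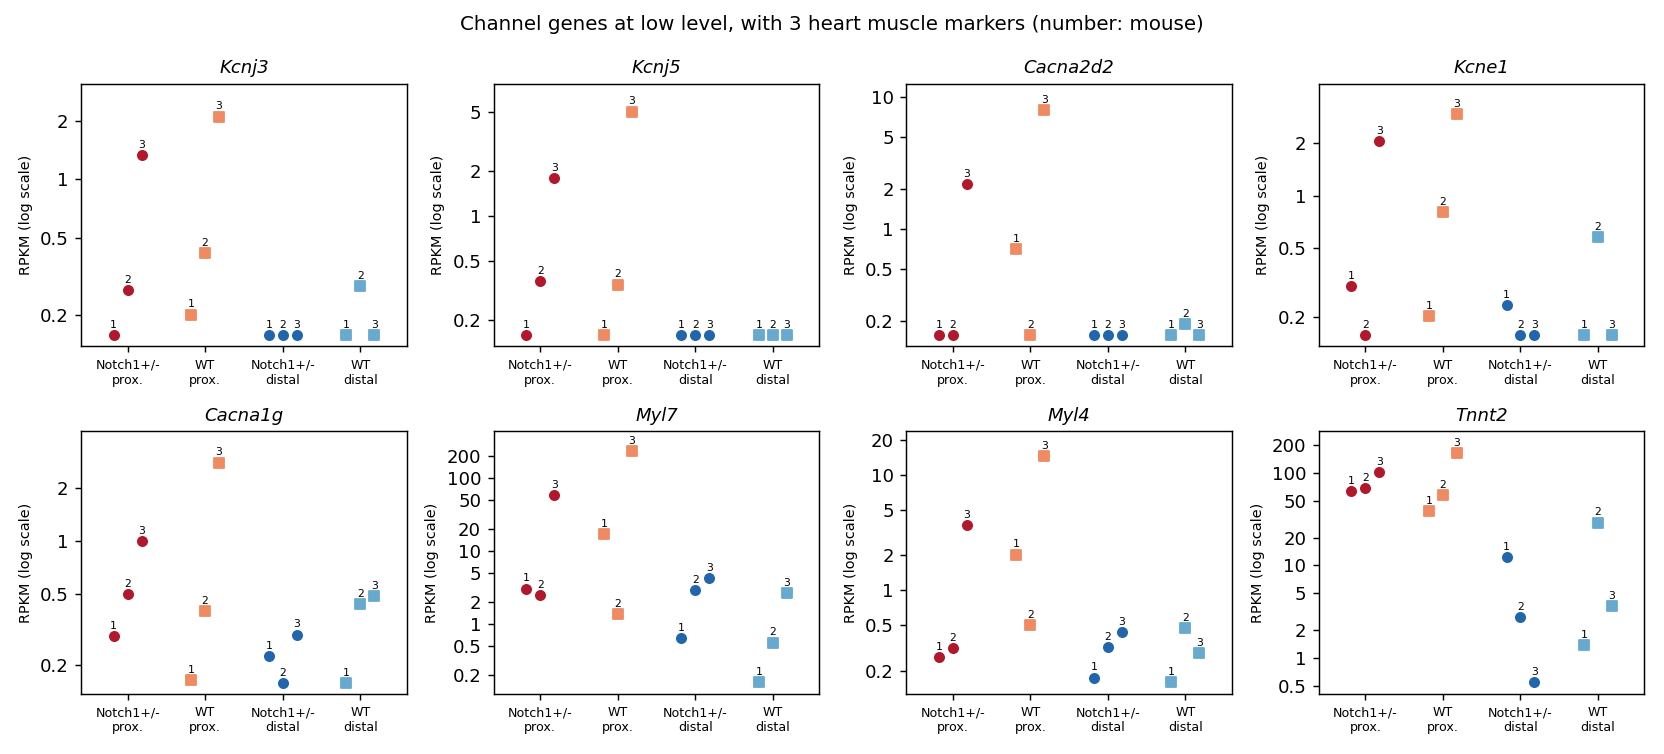
RPKM by library, on log axes, for 5 channel genes of low level and for the heart muscle markers Myl7, Myl4 and Tnnt2, with the mouse number above each point. Notch1+/- proximal 3 and wildtype proximal 3 hold the 2 highest values of each channel gene and of each marker, while most distal libraries sit at the floor of 0.158 RPKM for Kcnj3, Kcnj5 and Cacna2d2.

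Of the further channel genes at low level given here, Kcnj13, Kcnc4 and Kcnk6 passed the filter and the others did not. Kcnj2, the classical strong inward rectifier of heart and endothelium, had 0.812, 0.978 and 0.487 RPKM in Notch1+/- proximal and 0.266, 0.295 and 1.32 RPKM in wildtype proximal aorta, against 0.158 to 0.598 RPKM in distal libraries. Kcnip2, the partner of Kv4 channels in the ventricle, was at the floor in 6 libraries and reached 0.874 RPKM in wildtype distal 2. Of the distal libraries, that library had the highest summed markers of heart muscle, 430 RPKM, and of fat, 75.7 RPKM. Kcnj11 and Kcnj12, 2 further inward rectifiers, and Kcng2, a silent Kv subunit, had means of 0.372, 0.369 and 0.315 RPKM. Kcng2 was highest in wildtype proximal 3 and Notch1+/- proximal 3, at 0.956 and 0.888 RPKM. The inward rectifier Kcnj13 was at 1.35 ± 0.325 RPKM in proximal and 1.13 ± 0.582 RPKM in distal aorta, and the leak channel Kcnk6 at 0.865 ± 0.244 and 1.29 ± 0.680 RPKM (SD, n = 6 each). Kcnc4 was at 1.15 ± 0.348 RPKM in proximal and 1.66 ± 0.630 RPKM in distal aorta, and Kcnd1, another Kv4 pore, and Kcnk1, another leak channel, had means of 0.564 and 0.433 RPKM.

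Cacnb2 was highest in the libraries of the mice numbered 3, in both locations and both genotypes. It had 3.07, 3.50 and 6.61 RPKM in Notch1+/- proximal, 2.79, 3.16 and 5.84 RPKM in wildtype proximal, 3.13, 2.64 and 5.13 RPKM in Notch1+/- distal and 2.07, 2.82 and 5.38 RPKM in wildtype distal aorta. The 4 libraries of mice numbered 3 lay at 5.13 to 6.61 RPKM and the other 8 at 2.07 to 3.50 RPKM. Of the 45 channel genes, 1 separated these libraries as higher and 0 as lower, against 0.66% and 1.02% of all genes of the table. It was noticed after the values were seen and was not tested, and the labels do not say what, if anything, the mice numbered 3 of both genotypes share. The library identifiers run consecutively by mouse number, across both genotypes and locations, and the labels do not say what this order stands for.

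No channel gene was called for genotype, and none of the 17297 genes tested was. Of the 25 tested, 0 passed limma's adjusted threshold in proximal aorta and 0 in distal aorta, where 0% of all 17297 genes did. At an unadjusted p under 0.05, 1 was higher and 0 lower in proximal aorta labelled Notch1+/-, and 0 were higher and 0 lower in distal aorta. Over all 17297 genes that limma threshold gave 457 higher and 104 lower in proximal and 204 higher and 320 lower in distal aorta. Kcna6 and Cacnb1 were among the 3 genes with the lowest unadjusted p-values in proximal aorta. Kcna6 differed by 0.52 (SE 0.24) and Cacnb1 by 0.44 (SE 0.28) on the log2 scale, labelled Notch1+/- minus wildtype, each with a limma adjusted p of 0.999. Without wildtype proximal 1 the difference of Cacnb1 was 0.26.

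In distal aorta the lowest unadjusted p-values belonged to Kcnj13, Kcnc4 and Kcnk6. Kcnj13, an inward rectifier of epithelia with 49.1% of its exon bases under Gigyf2 on the other strand, differed by -0.61 (SE 0.36), and its Notch1+/- distal values of 0.635, 1.65 and 0.272 RPKM overlapped those of wildtype distal aorta, 1.09, 1.75 and 1.36 RPKM. Kcnc4, a fast Kv3 pore, differed by -0.48 (SE 0.30) and Kcnk6, a tandem-pore leak channel, by -0.51 (SE 0.33), each with a limma adjusted p of 1. With each library left out in turn, the log2 difference ran from -1.01 to -0.27 for Kcnj13, from -0.72 to -0.25 for Kcnc4 and from -0.67 to -0.21 for Kcnk6. The value nearest 0 came without Notch1+/- distal 3 for Kcnj13 and Kcnc4 and without wildtype distal 2 for Kcnk6, and the value farthest from 0 without Notch1+/- distal 2, Notch1+/- distal 1 and again Notch1+/- distal 1. The widest interactions by p were those of Kcna6, of Cacnb1 at 0.52 (SE 0.40) and of Kcnip3 at -0.76 (SE 0.59), each with a limma adjusted p of 0.9996. The interaction of Kcnip3 was -0.37 without Notch1+/- proximal 3 and -1.16 without wildtype distal 2, and that of Cacnb1 was 0.34 without wildtype proximal 1.

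A few channel genes did not overlap between the genotypes in 3 against 3 libraries. In proximal aorta Cacnb1 was higher in the libraries labelled Notch1+/-, at 1.12, 1.19 and 1.37 RPKM against 0.496, 0.937 and 0.933 RPKM in wildtype, as were 7.04% of all genes of the table. Kcna2 and Kcnn3, a small-conductance calcium-activated channel, were lower there without overlap, as were 1.57% of all genes. In distal aorta Cacna1c, at 5.04, 5.35 and 4.79 RPKM in those labelled Notch1+/- against 4.36, 4.26 and 4.71 RPKM in wildtype, was higher without overlap, and so was Kcnd3, at 3.57, 3.22 and 3.45 RPKM against 2.80, 2.77 and 2.03 RPKM, as were 2.65% of all genes. Kcns3, a silent Kv subunit, was lower there, at 0.299, 0.443 and 0.302 RPKM against 1.78, 0.692 and 1.24 RPKM in wildtype, as were 3.59% of all genes. Of these 6 genes, Cacnb1, Cacna1c and Kcnd3 were tested and not called, and the other 3 were under the filter.

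Genes that work beside the channels were read from lists of calcium stores and entry, of other ion channels of muscle and of channel regulators. Of 59 listed genes, 41 were in the table and 37 were tested for location, with 1 called higher and 1 lower. Of all tested genes, 0.775% were called higher and 0.728% lower. Casq2, from the list of calcium stores and named after its values were seen, lay just over the threshold. Its log2 difference was 2.19 (SE 0.49, limma adjusted p = 0.0501). Pln, phospholamban, which restrains the calcium pump of the sarcoplasmic reticulum in heart and smooth muscle, was at 42.6 to 153 RPKM in proximal libraries with a median of 64.5, against 3.77 to 32.4 RPKM in distal libraries with a median of 7.50. Its proximal libraries all lay above the distal ones, as for 0.838% of all genes of the table. The log2 difference of Pln was 2.89 (SE 0.48, limma adjusted p = 0.0103), or 2.51 with a limma adjusted p of 0.0671 without the 2 proximal libraries numbered 3. The summed heart muscle markers given above move with it, and their part in its level was not tested.

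Ano1, the calcium-activated chloride channel that depolarises arterial smooth muscle, was the gene called lower. It had 10.1, 7.69 and 11.6 RPKM in Notch1+/- proximal and 10.3, 10.2 and 8.24 RPKM in wildtype proximal aorta, against 15.1, 17.1 and 22.6 RPKM in Notch1+/- distal and 13.4, 15.6 and 17.2 RPKM in wildtype distal aorta. Every proximal library lay below every distal one, as for 0.893% of all genes of the table, with a log2 difference of -0.76 (SE 0.15, limma adjusted p = 0.0229). That call ended without the 2 distal libraries that hold the most heart muscle RNA, at a log2 difference of -0.82 and a limma adjusted p of 0.0665, without the 2 proximal libraries numbered 3, at -0.78 and 0.0776, and without either Notch1+/- proximal 1, Notch1+/- proximal 2, wildtype proximal 3, wildtype distal 2 or wildtype distal 3, at a limma adjusted p of 0.0507 to 0.0698. With each library left out in turn the log2 difference ran from -0.83 to -0.68. In the genotype contrasts, the interaction and the contrasts of location within a genotype, 0 of the 37 were called. Of all tested genes, 0% were called for genotype or the interaction, 0.237% for location in wildtype and 0.254% for location in Notch1+/- mice.

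The authors' own analysis of variance, given as p-values in their deposited table, had 12 of the 45 channel genes at an unadjusted p of location under 0.05, 1 for genotype and 2 for the interaction. Of all 21954 genes in the authors' deposited table, 10.5% had such a p for location, 3.56% for genotype and 3.17% for the interaction. At an adjusted p under 0.05 the authors' deposited table held 1, 0 and 0 of the channel genes, against 145, 4 and 1 of all genes. In the authors' deposited table Kcna6 had a p of location of 0.000613, adjusted to 0.0690.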

How the data were processed

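RNA of 12 aortic pieces was amplified with a NuGEN Ovation kit and sequenced as paired reads, per the labels' protocols; this kit does not mark strand. The submitters' processing notes name TopHat2 2.1.0, Bowtie2, R 3.2.2 and build mm10. The program and annotation behind the read counts are not given in the sources used here. Values in the table the authors deposited are RPKM per gene, in which they replaced a value under a library's detection threshold (0.136 to 0.189 RPKM, per the file headers) by 0.158 RPKM; 9.78% of all values are at that floor. The authors also deposited p-values and adjusted p-values of their analysis of variance per gene. A further 24 per-sample columns of the table were not used.

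Channel genes were selected by name. The members, lists and tests were chosen with earlier results of these data known. RPKM values were converted to log2(RPKM + 0.5), genes with at least 1 RPKM in at least 3 of 12 libraries were kept, and limma 3.58.1 in R 4.3.3 was fitted to all 17297 of them with the 4 group means and a variance trend. The mouse was not a block in this main fit. P-values are 2-sided with Benjamini-Hochberg adjustment over all genes tested, and a gene was called at an adjusted p under 0.05. The fit was tested on simulated data. Results of 2 channel genes are counted but not reported here.

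Genes named are those called, the 10 with the highest mean, a list known from smooth muscle, endothelium or heart, and the 3 with the smallest p for each genotype and interaction contrast; others are said to have been named after their values were seen, as were Cacna1d, Kcnab1, Kcnmb4, Kcnd1, Kcnk1, Kcnn3, Kcns3, Kcnj11, Kcnj12 and Kcng2. Libraries of the same genotype and number come from the same mouse, per the deposited sample sheet; their deviations from the group means correlated at 0.0731 to 0.216 over genes (6 pairs), against -0.186 to 0.0668 for different mice (12 pairs).

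Where RPKM steps allowed it, reads per gene were counted back: 33 genes had the length of the GENCODE M21 exon union, 11 a length found from the steps, and 80.5% to 81.4% of the low values of genes in that annotation fell within 0.02 of a whole read. By this count Kcnj15 had 5920 to 9229 reads per library, Kcna6 93 to 343 and Kcna1, where detected, 17 to 95. The counts were not tested, since lengths are not known for all genes. Alternatives changed the pseudocount, the filter, the scaling, the variance model and the libraries used, and added the mouse as a block.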

Additional observations from a re-analysis of the deposited data

Results flagged for a closer look

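Among 90 sets of 6 libraries (each of the 45 genes in the proximal and in the distal libraries, genotypes together), 16 values stood apart from the other 5 by more than Dixon's critical value for the gap over the range. Chance flags about 1 in 20 such sets, and sets in which most libraries are at the floor are flagged by any single detected value. Of the 16, 8 lay in wildtype distal 2, which had the highest summed heart muscle markers of the distal libraries, and 4 in wildtype proximal 3, which had the highest of all. Wildtype distal 2 also had the highest fat and endothelial marker sums of all libraries, 75.7 and 54.0 RPKM. Wildtype proximal 3 had the highest fat sum of the proximal libraries, 58.4 RPKM. The part of any of these tissues in the flagged values was not tested.

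In wildtype distal 2, Kcna2 was at 0.515 RPKM, Kcnk6 at 2.59, Kcne1 at 0.578, Kcna5 at 0.474, Kcnj3 at 0.281, Cacna2d2 at 0.191 and Kcnip2 at 0.874, each above the other distal libraries, and Kcnip4 was below them at 1.98. In wildtype proximal 3, Cacna2d2 was at 8.02, Kcnj5 at 5.06, Cacna1g at 2.78 and Cacna1h at 0.995 RPKM, each above the other proximal libraries.

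The remaining 4 lay elsewhere. Cacng7 was at 7.85 RPKM in Notch1+/- proximal 3, where the next proximal library had 4.69 RPKM. Kcnab1 was at 6.05 RPKM in Notch1+/- distal 2, where the next distal library had 3.79 RPKM, and Kcnj11 at 0.688 RPKM in Notch1+/- distal 3, where the next had 0.278 RPKM. Cacna1h was at 0.159 RPKM in wildtype distal 3, with the other distal libraries at the floor of 0.158 RPKM.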

How the results depend on the processing

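The count of channel genes called for location over both genotypes, 1 as reported, was 2 with no filter on low values, where Kcna2 joined Kcna6. It was 0 with the mouse as a replicate block (Kcna6 limma adjusted p = 0.0636), 0 without the 2 distal libraries with the most heart muscle RNA (0.0734), 0 without the 2 proximal libraries numbered 3, an alternative chosen after seeing the data (0.0524), and 0 to 1 when each library was left out in turn. The block changed no other call among the channel genes. The other 7 alternatives kept the call on Kcna6, with log2 differences of -0.98 to -0.67. For location within a genotype, genotype and the interaction, the count was 0 under every alternative run. The antisense gene Gm26673 lost its call with the block (limma adjusted p = 0.0638), with no filter (0.0570) and with a pseudocount of 1 (0.0508). Small differences between proximal and distal aorta changed sign: without the 2 proximal libraries numbered 3, Cacnb1 at -0.047, Cacnb2 at -0.085, Cacng7 at -0.11, Kcnh2 at -0.11 and Kcnmb4 at -0.025; without the 2 heart-rich distal libraries, Cacng7 at -0.056; and with nuclear RPKM rescaled to a constant sum, Kcnmb4 at -0.0090. With 1 library left out, Cacnb1 ran from -0.075 to 0.11, Cacng7 from -0.12 to 0.15, Kcnh2 from -0.11 to 0.19, Kcnmb4 from -0.067 to 0.078 and Kcnq5 from -0.073 to 0.18; the cause was not tested. Genes under 1 RPKM rest on few reads, and for those at the floor differences between libraries were not detectable at this depth.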
